A study of Mus musculus with 6 samples.

Results

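Collagen genes encode the triple-helical proteins of the extracellular matrix, and on these arrays they were the genes whose symbol is Col, a number, the letter a and a number. This rule found 43 genes, read by 63 probes, among the 20832 genes that could be named on the array. The 44th collagen gene of the gene table, Col12a1, had no probe. The cells were primary mouse prostate cells, all of them p53-/- and carrying Rb alleles flanked by loxP sites, the targets of Cre recombinase. Cells infected overnight with a lacZ adenovirus kept Rb (p53-/- Rbf/f, called Rb intact), and cells infected with a Cre adenovirus lost it (p53-/- Rb∆f/∆f, called Rb deleted). Both were grown in Prostacult medium without FBS, with bFGF and bEGF, and RNA was extracted 48 hours after infection. The 3 samples of each group are described as independent experiments, and each was hybridised in Cy3 to its own array. The vector and the Rb status of a sample cannot be told apart, and the age of the mice is not given in the sources used here.

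Collagen chains assemble in groups of identical or related chains, so that the genes of one type often work as partners. Fibrillar collagens such as types I, III and V form the banded fibrils of connective tissue, type IV forms the sheet-like network of basement membranes, and type VI forms beaded microfilaments between them. FACIT collagens sit on fibril surfaces, and transmembrane collagens such as type XVII anchor cells to the matrix. In the prostate, stromal fibroblasts and smooth muscle make most of the fibrillar matrix, and a basement membrane separates the epithelium from it. Rb restrains the E2F factors that drive genes of the cell cycle.

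The promoters shown here are those of 3 collagen genes that were lower after Rb deletion and of Col1a2, which did not pass the test and was shown as the fibrillar gene with the highest mean signal. They are the 250 bases before the RefSeq start in GRCm38.p6, chosen because this stretch lies outside every annotated gene. Capitals mark the GC box GGGCGG, the box CCAAT, the TATA box TATAAA and the E2F motif TTTCCCGC, on either strand. Col7a1 is read on the plus strand of chr9:108953336-108953585, Col17a1 on the minus strand of chr19:47692043-47692292, Col18a1 on the minus strand of chr10:77166531-77166780 and Col1a2 on the plus strand of chr6:4505368-4505617.
Col7a1: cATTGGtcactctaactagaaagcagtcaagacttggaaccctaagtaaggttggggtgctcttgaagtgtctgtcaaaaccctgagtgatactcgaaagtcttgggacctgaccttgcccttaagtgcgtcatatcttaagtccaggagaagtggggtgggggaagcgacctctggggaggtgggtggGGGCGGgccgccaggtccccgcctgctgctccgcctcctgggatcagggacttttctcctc
Col17a1: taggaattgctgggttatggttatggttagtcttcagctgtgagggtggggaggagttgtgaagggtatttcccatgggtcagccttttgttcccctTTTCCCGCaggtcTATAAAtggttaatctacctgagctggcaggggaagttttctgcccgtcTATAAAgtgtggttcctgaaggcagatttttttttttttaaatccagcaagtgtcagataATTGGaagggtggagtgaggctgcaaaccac
Col18a1: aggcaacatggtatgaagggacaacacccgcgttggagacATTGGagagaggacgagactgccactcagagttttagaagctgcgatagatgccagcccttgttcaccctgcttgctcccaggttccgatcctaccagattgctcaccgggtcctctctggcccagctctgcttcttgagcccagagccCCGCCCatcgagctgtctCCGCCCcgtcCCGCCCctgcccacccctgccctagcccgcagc
Col1a2: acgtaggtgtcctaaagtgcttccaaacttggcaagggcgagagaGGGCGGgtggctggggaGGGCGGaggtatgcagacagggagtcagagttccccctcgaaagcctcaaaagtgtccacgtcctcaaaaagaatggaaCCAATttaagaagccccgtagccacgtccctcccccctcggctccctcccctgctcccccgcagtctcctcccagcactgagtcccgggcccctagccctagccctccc
Motifs were counted over the 250 bases before the start in each RefSeq window. The 50 bases after the start were not searched, and 35 collagen genes had 38 windows. A GC box lay in 57.9% of the collagen windows and in 32.7% of all 32851 windows. CCAAT boxes lay in 34.2% of the collagen windows and in 33.8% of all windows. For the 6 collagen genes that fell and have a window, 5 of 7 windows held CCAAT, as did 10 of the 23 windows of all tested collagens. A GC box lay in 3 of those 7 windows and in 15 of those 23, and TATAAA in 1 of the 7 and 2 of the 23. Col18a1 had more than 1 of the 7 windows. An E2F motif, TTTCCCGC or TTTGGCGC, lay in 1 of the 38 collagen windows, that of Col17a1, and in 1.3% of all windows. TATAAA lay in 13.2% of collagen windows and 12.4% of all windows. These letters describe the windows and were set against no test.

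Array quality bears on every value that follows. The share of probes well above background was 59% to 63.3% per array, no spot was saturated, and Pearson's r over probes within a group was 0.9928 or higher. The Rb1 probe was lower in every Rb deleted sample, falling by 1.96 ± 0.05 (SE) on the log2 scale. Of the markers that define prostate epithelium, the luminal genes Epcam and Cdh1 and the basal gene Krt15 were well above background on 0 of 6 arrays, while Dcn, Tagln and Krt18 were measured on all. Rb intact 1 stood apart from its group, with a score of 22.84 on the second principal component (22.3% of the variance) against -15.07 and -14.52 for Rb intact 2 and 3. The arrays lay on 2 slides: Rb deleted 2 and 3 shared slide 2, and the other 4 arrays shared slide 1. A level below is the log2 signal minus the array's 75th percentile, so 0 is that percentile, and a difference is Rb deleted minus Rb intact. Probes differ in how strongly they bind, so the mean signals of different genes say nothing of transcript abundance. They served to choose which gene of a list is shown, as the brightest. The summed level of a marker list below is the log2 of the sum of its unlogged levels. Bright probes weigh most in it, so it does not stand for every gene of the list.

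Of the 43 collagen genes, 25 had a probe that passed the background filter in 1 or both groups, on all 3 arrays, and were tested. All but 1 of the 25 were above background on all 6 arrays; Col27a1, a minor fibrillar chain, was above it on 3 Rb intact and 2 Rb deleted arrays. After Rb deletion 1 of the 25 rose and 7 fell at a limma adjusted p under 0.05, adjusted over all 13731 genes. Col4a4 rose, and Col4a1, Col6a3, Col16a1, Col22a1, Col17a1, Col7a1 and Col18a1 fell. Among all genes tested, 9.66% rose, 10.8% fell and 20.4% did either, while of the collagens 4% rose and 28% fell. The median difference was -0.11 over the 25 collagens and 0.01 over all genes. Samples of the groups did not overlap for 2 collagens that were higher in Rb deleted and for 13 that were lower, against 23.7% and 21.5% of all genes, or 45.2% in either direction. All samples came from whole cultures, in which fewer cells of a type and less RNA per cell cannot be told apart.

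**Figure D1:**
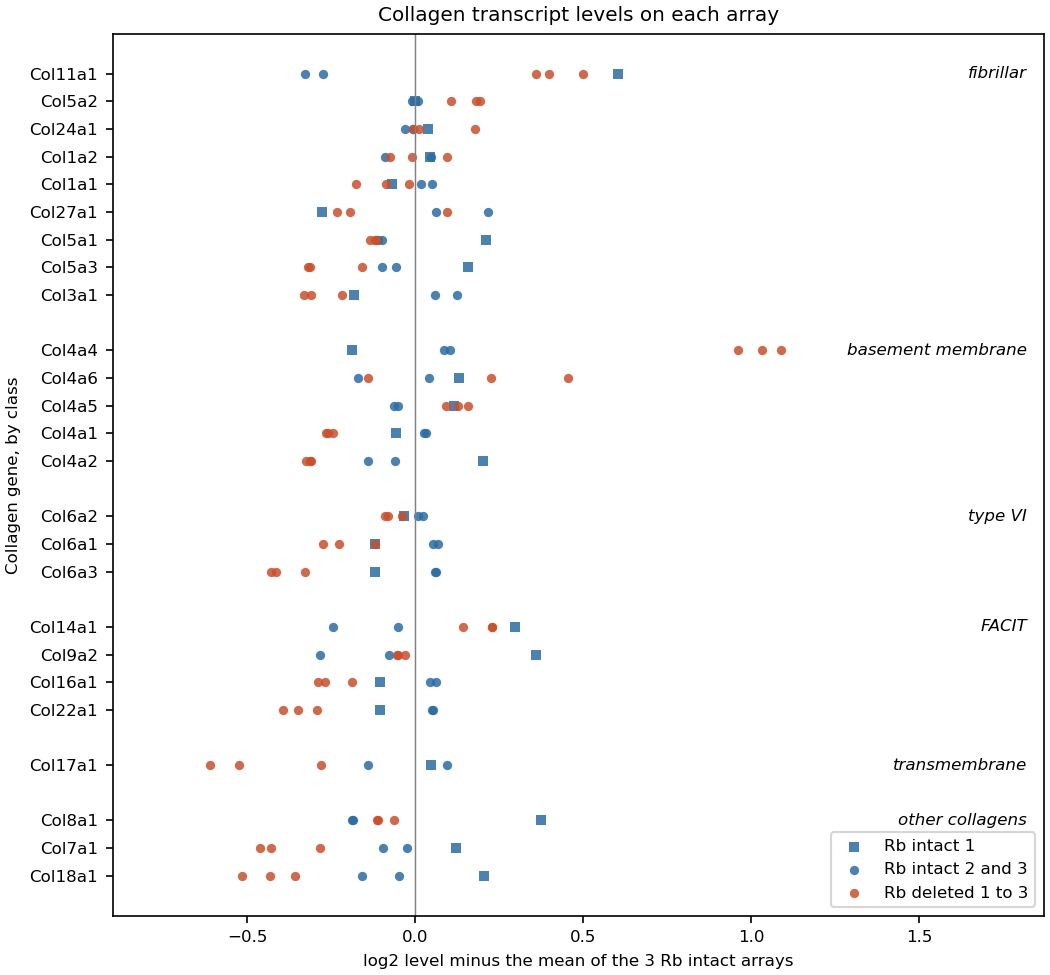
Level of each tested collagen gene on each array, as log2 signal minus the mean of the 3 Rb intact arrays, ordered by class. Points are single arrays: blue for Rb intact, with Rb intact 1 as a square, and red for Rb deleted. The 3 Rb deleted points lie below all Rb intact points for 13 genes and above them for Col4a4 and Col5a2.

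**Figure D2:**
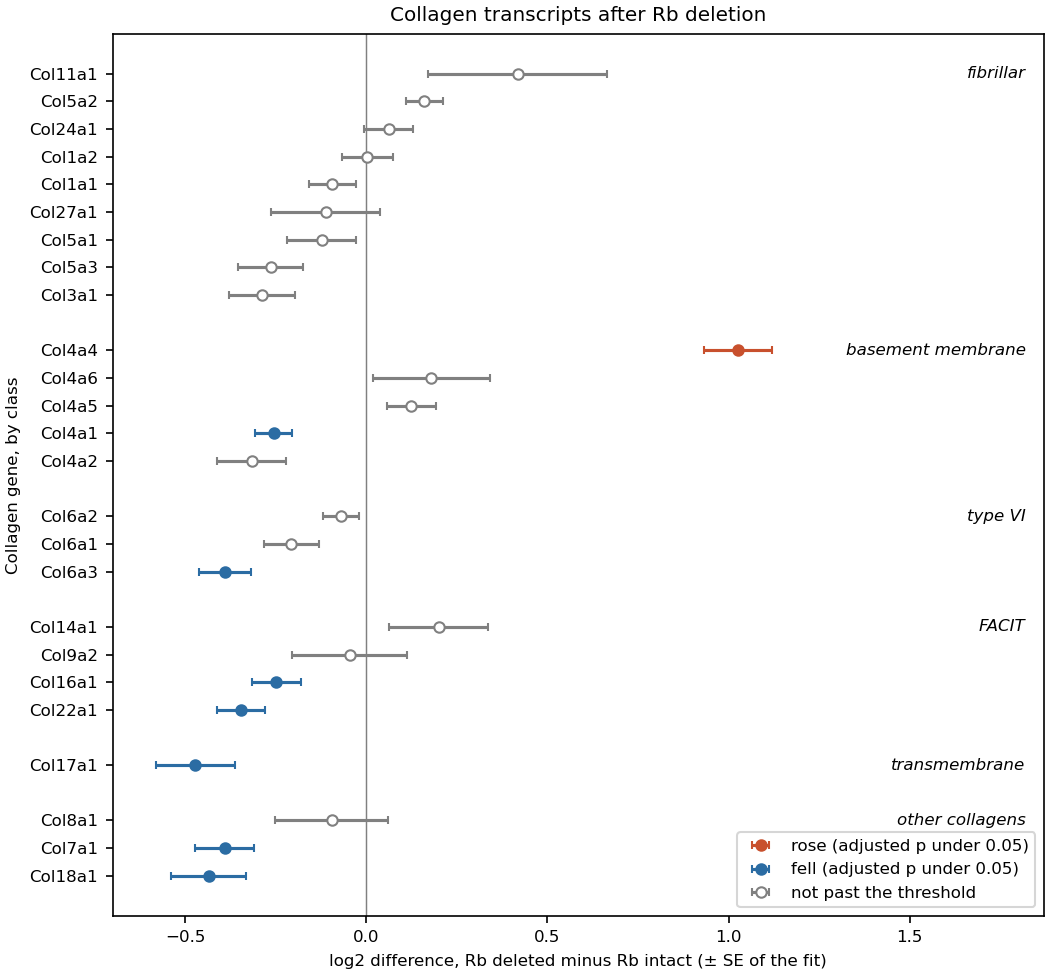
Difference of each tested collagen gene, Rb deleted minus Rb intact in log2 units, with bars for ± SE of the fit over 3 samples a group. Filled points passed an adjusted p under 0.05: red for Col4a4, which rose by 1.03, and blue for the 7 genes that fell, from Col16a1 at -0.25 to Col17a1 at -0.47.

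The fibrillar collagens were the largest class on the array, and none of the 9 tested of 11 passed the limma threshold in either direction. At an unadjusted p under 0.05, 1 was higher and 2 were lower, and the median difference was -0.09. Type I collagen, the main protein of connective tissue fibrils, is built from the products of Col1a1 and Col1a2. Col1a2, which had the highest mean signal of the class, was at 6.41, 6.27 and 6.41 in Rb intact 1 to 3 and at 6.45, 6.35 and 6.29 in Rb deleted 1 to 3. The groups overlapped, with a difference of 0.00 ± 0.07 (SE; limma adjusted p = 0.982). Its partner Col1a1 differed by -0.09 ± 0.07 (adjusted p = 0.349), also with overlapping groups.

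Col3a1, the chain of type III collagen that is found in fibrils together with type I, differed by -0.29 ± 0.09 (SE; limma adjusted p = 0.0737). All its Rb deleted samples, at 4.77 to 4.89, were below all Rb intact samples, at 4.92 to 5.23, with the least gap to Rb intact 1. The type V chains, which regulate fibril diameter, lay on both sides of 0. Col5a2 was higher by 0.16 ± 0.05 (adjusted p = 0.0735), Col5a3 lower by -0.26 ± 0.09 (adjusted p = 0.0856) and Col5a1 lower by -0.12 ± 0.10 (adjusted p = 0.396), each without overlap between groups. For Col5a1 the nearest samples were almost level, Rb intact 2 at 2.60 and Rb deleted 2 at 2.59, and Rb intact 1 was highest at 2.92. Without Rb intact 1 its difference was -0.02 (limma adjusted p = 0.682). Col24a1, a minor fibrillar chain, differed by 0.06 and Col27a1 by -0.11. Col11a1, the type XI chain known from cartilage fibrils, was at -2.12 in Rb intact 1 but at -3.05 and -2.99 in Rb intact 2 and 3. Its Rb deleted samples lay between, at -2.22, -2.36 and -2.32, so that the difference of 0.42 ± 0.25 had an adjusted p of 0.276 and rested on which Rb intact samples were counted.

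The basement membrane collagens of type IV held both the rise and one of the falls. Col4a1 and Col4a2 encode the chains of the network found in nearly all basement membranes, and the genes lie head to head as neighbours. Col4a1 was at 2.23, 2.32 and 2.31 in Rb intact 1 to 3 and at 2.04, 2.02 and 2.02 in Rb deleted 1 to 3. Every Rb deleted sample was below every Rb intact one. Col4a1 fell by 0.26 ± 0.05 (SE; limma adjusted p = 0.0193), a 1.19-fold lower signal. Col4a2 was at 2.80, 2.53 and 2.45 in Rb intact 1 to 3 and at 2.28, 2.29 and 2.27 in Rb deleted 1 to 3. The groups did not overlap either, Rb intact 1 being highest, and the difference of -0.32 ± 0.10 missed the threshold (adjusted p = 0.0632).

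Col4a4 encodes a chain of the specialised type IV network known from kidney glomeruli. The probe that represents it was at -5.30, -5.03 and -5.01 in Rb intact 1 to 3 and at -4.15, -4.02 and -4.08 in Rb deleted 1 to 3. All Rb deleted samples stood above all Rb intact ones, and the rise was 1.03 ± 0.09 (SE; limma adjusted p = 0.00124), or 2.04-fold, at a signal far under the 75th percentile. The difference was 0.61 with the normexp background model and 0.56 as the mean of the passing probes, both past the threshold. The probe that represents Col4a4, A_55_P2143837, was chosen as the brightest on average over both groups. In Rb intact it was dimmer than the other passing probe, A_55_P2143832, with means of -5.11 and -4.76. In Rb deleted it was brighter, with means of -4.08 and -4.67. The choice thus rested on its Rb deleted level, and the adjusted p of the gene does not allow for that. Col4a5 and Col4a6, which lie next to each other and encode partner chains, differed by 0.12 ± 0.07 (adjusted p = 0.235) and 0.18 ± 0.16 (adjusted p = 0.465), both with overlap. Col4a3, the neighbour and partner of Col4a4, had no probe above background on any array.

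The probes of a type IV gene did not give one answer. Tested probe by probe over all 23051 probes that passed, 7.1% rose and 8.8% fell, or 15.9% in either direction. For Col4a4, probe A_55_P2143837 is the one that rose, while A_55_P2143832 differed by 0.09 ± 0.06 (SE; limma adjusted p over probes = 0.379), and A_55_P2009918 was above background on 0 of 6 arrays. That second probe was at -4.73, -4.83 and -4.72 in Rb intact 1 to 3 and at -4.62, -4.72 and -4.69 in Rb deleted 1 to 3. Its Rb deleted samples were the higher ones too, but the nearest samples of the groups were level to the second decimal. For Col4a6 the dimmer probe was the one that rose: A_52_P516409 was at -4.04, -3.90 and -3.82 in Rb intact 1 to 3 and at -3.06, -3.00 and -3.02 in Rb deleted 1 to 3. It rose by 0.89 ± 0.07 (adjusted p over probes = 0.00131), or 1.86-fold, where A_52_P447196, which represents the gene, did not pass. Within each array the 2 probes shifted against each other by 0.94 for Col4a4 and 0.71 for Col4a6, without overlap between groups. The exact two-sided permutation p was 0.1 for each, the smallest that 3 against 3 can give, and 0.25 after adjustment over 5 probe pairs. Which part of the transcript each probe reads was not analysed here.

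Elsewhere several probes of a gene moved the same way. Both Col18a1 probes fell, by 0.43 ± 0.11 (SE; limma adjusted p over probes = 0.0416) and by 0.47 ± 0.07 (adjusted p over probes = 0.0106). The 3 Col16a1 probes differed by -0.49 ± 0.14, -0.25 ± 0.07 and -0.11 ± 0.06, and none of them passed among all probes (adjusted p over probes = 0.0592, 0.0613 and 0.274). Col16a1 passed in the test of genes and not in that of probes.

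**Figure D3:**
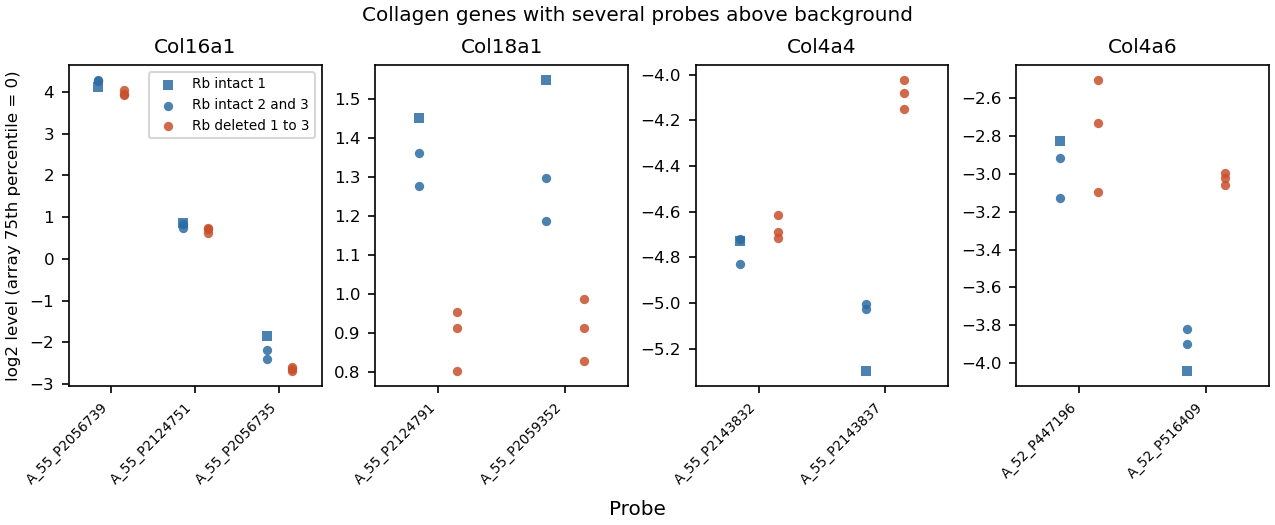
Level on each array of every probe that passed, for the 4 collagen genes with several such probes, as log2 signal with the array 75th percentile at 0 (axis ranges differ between panels). Squares are Rb intact 1, blue circles Rb intact 2 and 3, red circles Rb deleted. The groups of A_55_P2143837 (Col4a4) and A_52_P516409 (Col4a6) lie far apart, those of the other Col4a4 probe meet, and those of the other Col4a6 probe overlap.

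All 3 measured type VI genes were lower in every Rb deleted sample than in any Rb intact sample, and 1 of them fell. Col6a1, Col6a2 and Col6a3 encode the chains that join into one type VI molecule. Col6a3, the largest of them, was at 3.37, 3.55 and 3.55 in Rb intact 1 to 3 and at 3.07, 3.06 and 3.16 in Rb deleted 1 to 3. It fell by 0.39 ± 0.07 (SE; limma adjusted p = 0.0137), or 1.31-fold. Col6a1 was at 3.41, 3.59 and 3.60 in Rb intact 1 to 3 and at 3.41, 3.31 and 3.26 in Rb deleted 1 to 3. Rb intact 1 and Rb deleted 1 were level to the second decimal, and the difference of -0.21 ± 0.08 did not pass (adjusted p = 0.105). Col6a2 differed by -0.07 ± 0.05 (adjusted p = 0.359). Col6a4, Col6a5 and Col6a6 were not above background on any array.

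Partner chains were also set against each other within each array, for 8 pairs. Col6a3 shifted down relative to Col6a1 by -0.18 and relative to Col6a2 by -0.32, without overlap between groups. The type V pairs shifted likewise, Col5a1 against Col5a2 by -0.28 and Col5a3 against Col5a2 by -0.42. Each of these 4 had an exact two-sided permutation p of 0.1, the smallest possible with 3 against 3, and 0.2 after adjustment over the 8 pairs. Col1a1 with Col1a2, Col4a1 with Col4a2, Col4a5 with Col4a6 and Col6a1 with Col6a2 overlapped between groups.

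Among the FACIT collagens 4 of 8 with a probe were tested, and 2 of them fell. Col16a1, which occurs with fibrils of connective tissue and near basement membranes, was at 4.12, 4.29 and 4.27 in Rb intact 1 to 3 and at 4.04, 3.93 and 3.96 in Rb deleted 1 to 3. The groups stood 0.25 ± 0.07 (SE) apart without overlap, Rb deleted being lower (limma adjusted p = 0.0468). Col22a1, a collagen of tissue junctions, was at -4.99, -4.84 and -4.84 in Rb intact 1 to 3 and at -5.18, -5.24 and -5.28 in Rb deleted 1 to 3. It fell by 0.35 ± 0.07 (adjusted p = 0.016), or 1.27-fold, near the bottom of the measured range, and the difference was -0.21 and not past the threshold with the normexp background model. Col14a1, which binds fibrils through the proteoglycan decorin, differed by 0.20 ± 0.14 (adjusted p = 0.342). Col9a2, a type IX chain known from cartilage, differed by -0.05 ± 0.16 (adjusted p = 0.857). In both, Rb intact 1 was the highest sample.

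Of the 4 transmembrane collagens 1 was tested. Col17a1, the hemidesmosome collagen that ties basal epithelial cells to the basement membrane, was at -5.49, -5.44 and -5.67 in Rb intact 1 to 3 and at -5.81, -6.14 and -6.06 in Rb deleted 1 to 3. It fell by 0.47 ± 0.11 (SE; limma adjusted p = 0.0284), or 1.39-fold, also at a dim signal. With the normexp background model it was -0.20, not past the threshold. Of 6 markers of prostate basal epithelium 4 were measured. Itga6, Itgb4 and Trp63 fell and Krt14 differed by 0.07, while Krt5 and Krt15 did not pass the filter. Among all genes, 9.66% rose and 10.8% fell. The fall of Trp63 rested on probe A_55_P2161055 (limma adjusted p = 0.0476), and its other probe, A_51_P216550, was not well above background on any array. The list's summed level was 4.85 to 5.11 in Rb intact and 4.38 to 4.43 in Rb deleted samples. Itga6 made up most of that sum, with means of 4.88 in Rb intact and 4.30 in Rb deleted, while Trp63, the next brightest, was at 0.81 and 0.55. The part of the list in the result was not tested.

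Of the remaining collagens, 3 of 8 were tested and 2 fell. Col7a1, which forms the anchoring fibrils under basement membranes, was at -0.39, -0.60 and -0.53 in Rb intact 1 to 3 and at -0.94, -0.97 and -0.79 in Rb deleted 1 to 3. It fell by 0.39 ± 0.08 (SE; limma adjusted p = 0.0208), or 1.31-fold. Col18a1, the basement membrane collagen whose end is released as endostatin, was at 1.55, 1.19 and 1.30 in Rb intact 1 to 3 and at 0.83, 0.99 and 0.91 in Rb deleted 1 to 3. Both genes showed no overlap between groups, and Rb intact 1 was the highest sample of each. Col18a1 fell by 0.43 ± 0.10 (adjusted p = 0.0324), or 1.35-fold. Col8a1, a short-chain network collagen, was at 0.85 in Rb intact 1 and 0.29 in each of the other Rb intact samples, and its difference of -0.10 ± 0.16 did not pass (adjusted p = 0.694).

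The 18 genes with a probe but no test were Col2a1, Col11a2, Col4a3, Col6a4, Col6a5, Col6a6, Col9a1, Col9a3, Col19a1, Col20a1, Col13a1, Col23a1, Col25a1, Col8a2, Col10a1, Col15a1, Col26a1 and Col28a1. For 12 of them no probe was well above background on any of the 6 arrays. The other 6 reached it on some arrays only. Single arrays of both groups stood out among their probes. Col8a2 probe A_55_P1960631 was at -3.45 in Rb intact 1 and between -7.71 and -5.74 elsewhere, while its other probe, A_52_P302544, was not above background on any array. A Col23a1 probe, A_51_P457557, was at -3.22 in Rb intact 3 and between -8.71 and -7.30 elsewhere. Col25a1 probe A_52_P876623 was at -3.57 in Rb deleted 3 and between -8.80 and -8.19 elsewhere. Col9a1 probe A_55_P1999532 was at -4.91 in Rb deleted 1 and between -8.62 and -5.97 elsewhere.

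The number of collagens past the threshold changed with the arrays and the slide. Rb intact 1 was the outermost Rb intact sample for 21 of the 25 genes, and its median distance from the mean of the other two was 0.18, as it was over all genes. Without it, 15 collagens passed: the 8 above and 7 more, with 5 higher and 10 lower, where 19.1% of all genes were higher, 18.1% lower and 37.2% either. The added genes included Col11a1, up by 0.72 (limma adjusted p = 0.00127), Col3a1, at -0.38 (adjusted p = 0.00543), Col4a2, at -0.21 (adjusted p = 0.014), and Col6a1, at -0.27 (adjusted p = 0.0191). Leaving out Rb intact 2 or 3 instead left 3 and 1 falls, and leaving out Rb deleted 1, 2 or 3 left 2, 0 and 2, with Col4a4 rising each time. In those 5 fits 12.9%, 12.4%, 13%, 9.13% and 9.22% of all genes rose or fell, in that order, and without Rb deleted 2 limma had 8 collagens lower at an unadjusted p under 0.05. Slide 2 held only Rb deleted arrays, so with slide as a block the difference is that of Rb deleted 1 alone against Rb intact, the same value as within slide 1, and only the estimate of the spread differs. With slide as a block, 1.46% of all genes rose, 3.43% fell and 4.89% did either, and of the collagens only Col4a4 passed, at 0.96 (adjusted p = 0.0294). In that limma fit 0 collagens fell, though 5 were lower at an unadjusted p under 0.05. Within slide 1, where that 1 Rb deleted sample is assumed to vary like the others, 0.197% of genes rose, 0.904% fell and 1.1% did either. There limma called 0 collagens, with 1 higher and 3 lower at an unadjusted p under 0.05, and Col4a4 at 0.96 had an adjusted p of 0.0994. The 7 lower genes kept their sign there, between -0.19 for Col16a1 and -0.51 for Col18a1. Over all 19 other settings, of which these 2 share their differences, Col4a4 passed in 18, Col6a3 in 13, Col7a1 in 12, Col17a1 and Col18a1 in 11, Col4a1 in 10, Col22a1 in 9 and Col16a1 in 7. In none of these settings did the Col4a4 probe that did not pass, A_55_P2143832, stand for the gene alone.

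**Figure D4:**
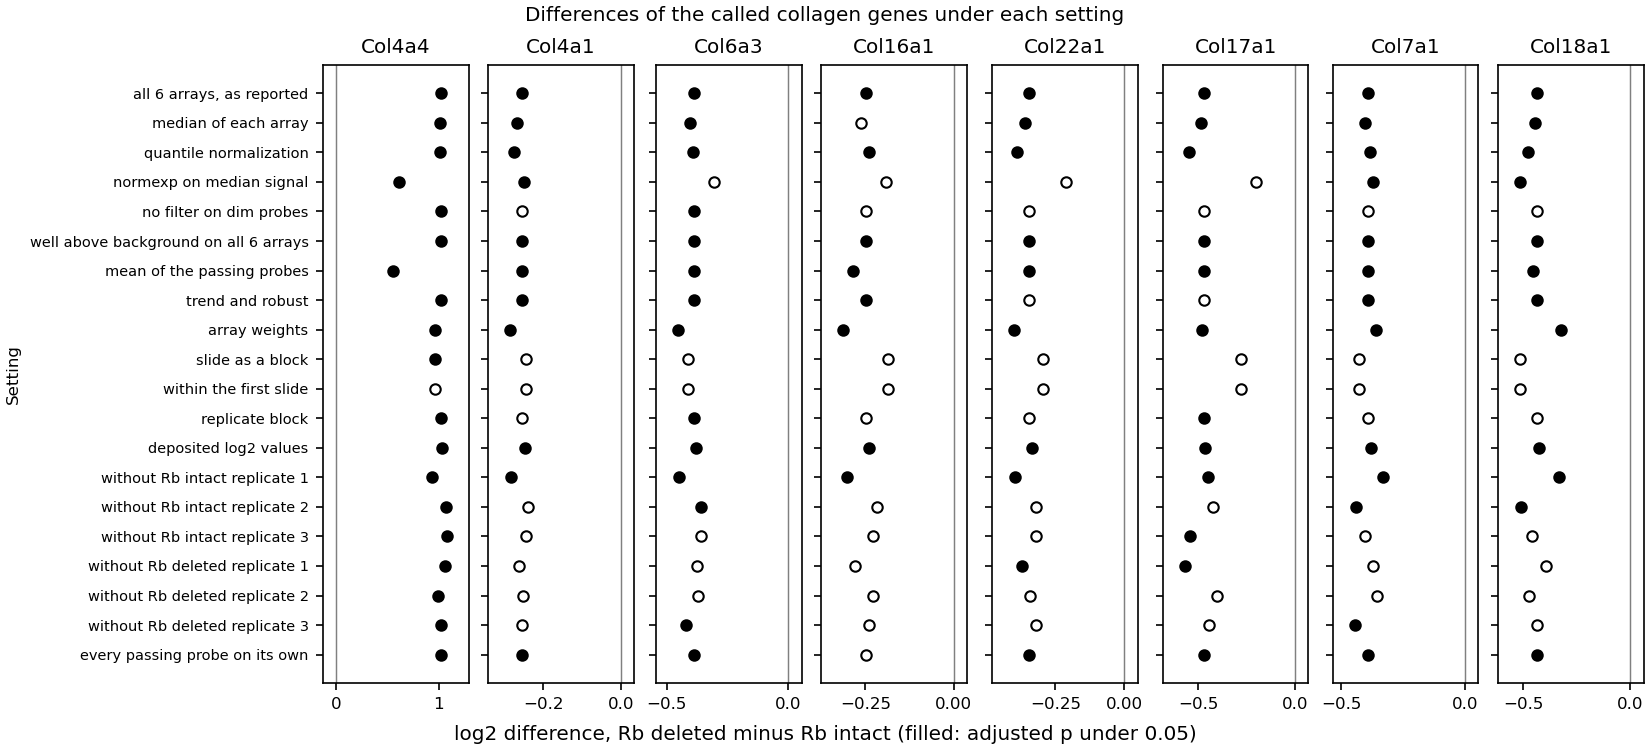
Difference of each collagen gene that rose or fell, Rb deleted minus Rb intact in log2 units, as reported and under 19 other settings. Filled points passed an adjusted p under 0.05, and open points did not (axis ranges differ between panels). The 2 slide settings share their differences. Every point keeps its side of 0, and Col4a4 passed in 18 of the 19. In none of these settings did the other passing Col4a4 probe, A_55_P2143832, stand for the gene alone.

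Genes that make, bind and regulate collagen were read from lists of 73 genes, of which 63 were tested, 3 rose and 11 fell, with a median difference of 0.00. That is 4.76% that rose and 17.5% that fell, beside 9.66% and 10.8% of all genes. With slide as a block 5 fell (Adamts14, Hspg2, Nid1, Tgfb2 and Tgfbi) and 1 rose (Loxl3). None of the 19 measured genes of collagen modification and folding passed limma, with 3 higher and 0 lower at an unadjusted p under 0.05. Plod2, a lysyl hydroxylase of collagen, had the smallest p of them at 0.20 ± 0.06 (SE; adjusted p = 0.0532). Procollagen processing had 3 falls among 7: Pcolce2, an enhancer of the C-propeptidase, by 0.58 ± 0.10 (adjusted p = 0.0109), and the N-propeptidases Adamts14 by 0.42 ± 0.05 (adjusted p = 0.00291) and Adamts2 by 0.31 (adjusted p = 0.0456). Of the 5 crosslinking enzymes only Loxl3 passed, a lysyl oxidase that rose by 0.53 ± 0.05 (adjusted p = 0.0013).

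Collagen receptors included 8 measured genes, and limma called 0 of them, with 2 higher and 2 lower at an unadjusted p under 0.05. The smallest p was that of Itga11, the alpha subunit of an integrin that binds fibrillar collagen, at 0.49 ± 0.15 (SE; adjusted p = 0.0629). Among 4 measured fibril-associated proteoglycans, lumican (Lum) fell by 0.40 ± 0.06 (adjusted p = 0.00842). Decorin (Dcn) differed by 0.08 ± 0.07 (adjusted p = 0.434).

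TGF-beta signalling, which drives collagen transcription in fibroblasts, had 1 rise and 4 falls among 13 measured ligands, receptors and targets. The list did not move 1 way: 6 of the 13 had a difference below 0, and the median difference was 0.08. The ligand Tgfb2 was at -3.15, -2.76 and -2.87 in Rb intact 1 to 3 and at -4.13, -4.13 and -4.21 in Rb deleted 1 to 3. It fell by 1.23 ± 0.11 (SE; limma adjusted p = 0.00102), or 2.34-fold. The secreted target Tgfbi fell by 0.87 ± 0.06 (adjusted p = 0.000559), the receptor Tgfbr2 by 0.57 ± 0.08 (adjusted p = 0.00539) and the ligand Tgfb1 by 0.30 (adjusted p = 0.0354).

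Partners of type IV collagen in the basement membrane had 1 rise and 3 falls among 7. Nid1, the linker between the laminin and type IV networks, was at 5.70, 5.53 and 5.63 in Rb intact 1 to 3 and at 4.95, 4.92 and 4.79 in Rb deleted 1 to 3. Nid1 fell by 0.74 ± 0.07 (SE; limma adjusted p = 0.00169), or 1.67-fold. Its relative Nid2 fell by 0.39 ± 0.11 (adjusted p = 0.0482), and perlecan (Hspg2) by 0.51 ± 0.06 (adjusted p = 0.00261). The laminin chain gene Lama5 rose by 0.63 ± 0.11 (adjusted p = 0.0106).

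**Figure D5:**
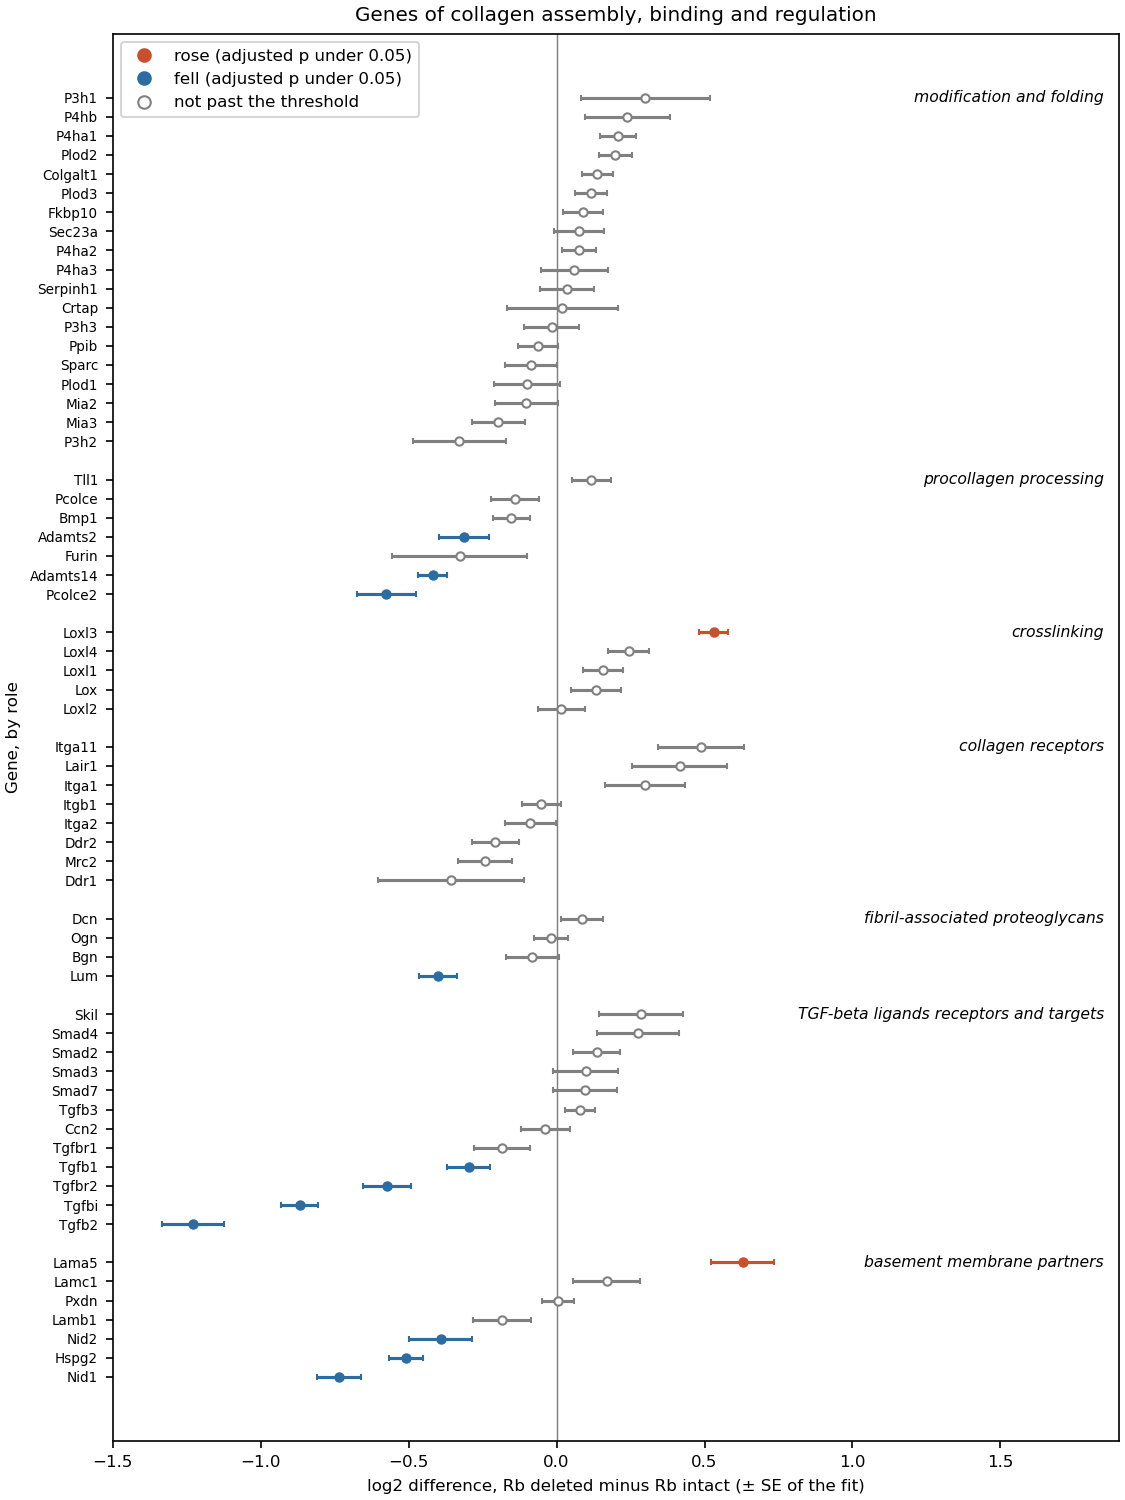
Difference of 62 of the 63 tested genes of collagen assembly, binding and regulation, Rb deleted minus Rb intact in log2 units, with bars for ± SE of the fit over 3 samples a group. Red points rose and blue points fell at an adjusted p under 0.05. Tgfb2 at -1.23 and Lama5 at 0.63 are the ends of the range.

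Markers of the cell types that make collagen were read beside these genes. Among all genes, 9.66% rose and 10.8% fell. All 11 fibroblast markers passed the filter, and 1 rose (Fap) and 2 fell (Lum and Twist2). At an unadjusted limma p under 0.05, 1 was higher and 5 were lower. Samples of the groups did not overlap for 1 that was higher and 5 that were lower. Those are 9.09% and 45.5% of the list, beside 23.7% and 21.5% of all genes. The summed level of the 11 was 8.24 to 8.31 in Rb intact and 8.14 to 8.21 in Rb deleted samples. Of the 7 smooth muscle markers, 4 were measured and all 4 fell, among them Tagln by 0.93 ± 0.06 (SE; limma adjusted p = 0.000426), while Myh11, Des and Lmod1 did not pass the filter. Their summed level was 5.11 to 5.33 in Rb intact and 4.23 to 4.26 in Rb deleted samples. Tagln made up most of that sum, with means of 4.84 in Rb intact and 3.91 in Rb deleted. The part of smooth muscle transcripts in the collagen results was not tested. Luminal epithelial markers had no limma call among 5 measured of 8 (1 higher and 0 lower at an unadjusted p under 0.05). Krt18 was the brightest, and Epcam and Cdh1 were among those not passing the filter. The summed level was 3.48 to 3.63 in Rb intact and 3.26 to 3.47 in Rb deleted samples. Krt18 made up most of that sum, with means of 3.46 in Rb intact and 3.30 in Rb deleted, and was not called (adjusted p = 0.204). Endothelial markers (3 of 5 measured, Kdr the brightest) had no limma call, with 1 higher at an unadjusted p under 0.05, at 1.92 to 1.97 in Rb intact and 1.72 to 2.00 in Rb deleted samples. Leukocyte markers (2 of 6 measured, Itgam the brighter) had no limma call and 0 at an unadjusted p under 0.05, at 1.06 to 2.55 in Rb intact and 1.78 to 2.01 in Rb deleted samples.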

How the data were processed

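Expression was measured on 6 Agilent 1-colour arrays, 3 per group. The authors' intensity values came from Agilent Feature Extraction (11.0.1.1 per the file headers, 10.7.3.1 per the submitters' processing notes). The processed intensity is background-subtracted and not scaled between arrays, per the file headers. The authors also deposited log2 values, with column medians from -0.52 to -0.49. They equalled the log2 processed intensity minus a constant per array within 0.01 for 100% of 22164 probes, and no label states their scale or centring. The deposited files also flag spots valued 0 or 1 as well above background, saturated or outlying.

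Spots marked as outlying were left out, and the rest of 43020 non-control spots were averaged to 39429 probes and set relative to the array's 75th percentile. The background filter asked for a signal flagged well above background throughout at least 1 group, and 23051 probes passed. RefSeq accessions named 27427 probes as 20832 genes through a GRCm38.p6 table, and 12002 probes stayed unnamed. The array design is on mm9, so no probe positions are given. Promoter sequences are from RefSeq, GRCm38.p6. The brightest passing probe on average stood for a gene, giving 13731 genes. That average took in both groups, so the choice between probes can depend on the difference that is tested. The comparison used lmFit and eBayes of limma 3.58.1 under R 4.3.3 (two-sided, no block, Benjamini-Hochberg over all genes, adjusted p under 0.05). Rose and fell mean past that threshold. The fit was tested on simulated data.

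The members and the lists were chosen with earlier results of these data known. By rule, every tested collagen could be named, with values on each array for those called and for the brightest of each class. From each pathway list the called genes and the one with the smallest p are named, and from each cell type list the brightest. Some genes that this rule names are not reported here. Dcn, Krt14 and the called markers beyond these, and the values on each array of other genes, were picked once their values had been seen. Other settings covered scaling, background, filter, probe choice, variance model, array weights, slide, replicate number, threshold, the deposited log2 values and each array left out. The number of arrays limits the precision.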

Additional observations from a re-analysis of the deposited data

How the results depend on the processing

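As reported, 7 collagens fell and 1 rose, and 11 pathway genes fell and 3 rose. The number of collagens that fell was 4 with normexp on median signal, 1 with no filter on dim probes, 11 with array weights, 0 with slide as a block, 0 within the first slide and 0 at an adjusted p under 0.01. The number that rose was 2 with the mean of a gene's probes, 2 with every probe on its own, 2 at an adjusted p under 0.1, 5 with array weights and 0 within the first slide. Pathway genes that fell numbered 17 with array weights, 5 with slide as a block, 0 within the first slide and 7 at an adjusted p under 0.01. Pathway genes that rose numbered 6 with normexp, 6 with the mean of probes, 5 with trend and robust, 13 with array weights, 1 with slide as a block, 0 within the first slide, 5 in the deposited log2 values, 5 with every probe on its own, 1 at an adjusted p under 0.01 and 7 under 0.1. Over all genes, the shares lower and higher were 22.1% and 24.3% with array weights, 4.22% and 2.93% with no filter, 10.2% and 8.45% with normexp, 11.6% and 10.6% with the mean of probes, 11.3% and 10.4% with trend and robust, 10.1% and 10.8% in the deposited log2 values and 10% and 9.07% with every named probe on its own. The 2 slide fits give the same differences, which rest on Rb deleted 1 alone. Leaving out 1 array at a time gave 0 to 10 collagens that fell and 1 to 5 that rose, and 7 to 13 pathway genes that fell and 1 to 10 that rose. Without Rb intact 1, 2 or 3 the collagens that fell numbered 10, 3 and 1, and without Rb deleted 1, 2 or 3 they numbered 2, 0 and 2. Deviations of same-numbered samples of the 2 groups hardly correlated (-0.03, -0.05 and 0.02). Those correlations cannot show whether samples of the same number shared an origin. With the number as a replicate block 2 collagens fell and 1 rose, and 8 pathway genes fell and 4 rose. In that fit 7.01% of all genes fell and 5.09% rose. Each collagen called as reported kept its sign under all 19 settings. The cause of these changes was not tested. The number of arrays and the dim signals of Col4a4, Col17a1 and Col22a1 limit the precision.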
